A study of Homo sapiens with 24 samples.

Results

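The genes described here are 10 feedback inhibitors of the mitogen-activated protein (MAP) kinase pathways: the dual-specificity phosphatases DUSP1, DUSP2, DUSP4, DUSP5, DUSP6, DUSP7 and DUSP10, the Sprouty genes SPRY1 and SPRY2, and the Sprouty-related gene SPRED1. They were chosen by symbol, and all 10 were found among the 23595 genes of the deposited tables. Polyadenylated RNA was sequenced from IMS-M2 and U937, established human lines labelled as acute myeloid leukaemia. Cells grew in the presence (+FA) or absence (-FA) of folic acid and received either OTX or the solvent DMSO. The labels give OTX only as an abbreviation, with no dose or duration. From what is known of the study it is birabresib, which blocks BET bromodomain proteins; these bind acetylated histones and promote transcription. The 8 groups of 3 libraries were therefore IMS-M2 +FA DMSO, IMS-M2 +FA OTX, IMS-M2 -FA DMSO, IMS-M2 -FA OTX, and the corresponding 4 groups of U937. Each line is represented by 1 established culture, the length of growth without folic acid is not given, and the labels do not say whether replicates were grown separately. The p-values therefore measure the spread between these libraries, which may be technical.

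Growth factor and cytokine receptors activate RAS, which starts a kinase chain from RAF through MEK to the kinase ERK. Active ERK raises the transcripts of several of its own inhibitors: dual-specificity phosphatases remove the activating phosphates from MAP kinases, while Sprouty and SPRED proteins restrain the step from the receptor to RAS and RAF. In myeloid leukaemia this pathway is often driven by lesions in receptors or RAS, and transcripts such as DUSP6 and SPRY2 are widely read as a measure of its output. Among the phosphatases, DUSP1, DUSP2, DUSP4 and DUSP5 are inducible and nuclear, DUSP6 and DUSP7 are cytoplasmic and prefer ERK, and DUSP10 prefers the stress kinases JNK and p38.

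The promoter sequences of 4 members are shown because their transcripts went different ways with OTX: DUSP6 rose in both lines, DUSP2 fell in both, SPRY2 rose mainly in U937, and DUSP1 moved in opposite directions in the 2 lines with folic acid. They come from RefSeq on GRCh38.p14, a later build than the hg19 of the deposited tables. Each is the 250 bases before an annotated transcription start, 5′ to 3′ on the gene's strand. Capitals mark CCGGAA (called the ETS core here), the cyclic AMP response element TGACGTCA and the E-box CACGTG, and none of these marked matches overlap.
DUSP6 (chr12:89352502-89352751, minus strand): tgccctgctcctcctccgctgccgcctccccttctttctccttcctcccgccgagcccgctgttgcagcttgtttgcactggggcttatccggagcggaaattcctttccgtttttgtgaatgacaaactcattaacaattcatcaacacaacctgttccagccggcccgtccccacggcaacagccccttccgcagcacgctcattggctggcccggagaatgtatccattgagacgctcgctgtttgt
DUSP2 (chr2:96145441-96145690, minus strand): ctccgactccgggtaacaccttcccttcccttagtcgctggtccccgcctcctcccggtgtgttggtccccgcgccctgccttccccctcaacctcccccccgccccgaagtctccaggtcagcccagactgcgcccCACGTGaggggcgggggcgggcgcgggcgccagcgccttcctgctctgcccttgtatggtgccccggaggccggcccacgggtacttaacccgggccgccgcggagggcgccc
SPRY2 (chr13:80341127-80341376, minus strand): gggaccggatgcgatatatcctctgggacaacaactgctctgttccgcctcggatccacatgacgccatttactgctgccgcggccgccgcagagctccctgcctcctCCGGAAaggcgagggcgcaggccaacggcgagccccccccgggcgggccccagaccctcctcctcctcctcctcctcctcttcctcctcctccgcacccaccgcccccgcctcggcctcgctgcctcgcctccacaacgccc
DUSP1 (chr5:172771196-172771445, minus strand): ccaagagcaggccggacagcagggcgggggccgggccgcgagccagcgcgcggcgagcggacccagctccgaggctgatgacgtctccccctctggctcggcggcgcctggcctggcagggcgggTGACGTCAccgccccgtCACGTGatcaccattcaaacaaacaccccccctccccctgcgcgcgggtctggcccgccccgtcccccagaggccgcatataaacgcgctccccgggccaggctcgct

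The search covered both strands and 7 motifs: those 3, the AP-1 site TGANTCA, the GC box GGGCGG, the TATA box TATAAA and the serum response element. The DUSP6 window held none of the 7. It does hold GGAA, the end of CCGGAA, and this shorter form was not searched for in any window. DUSP1 held the cyclic AMP response element with its first base 125 bases before the start, an E-box at 108, a TATA box at 30 and 4 GC boxes. DUSP2 held an E-box at 113 and 3 GC boxes, and SPRY2 (the outermost of its 3 annotated starts) held an ETS core at 142 and 2 GC boxes. Over 35116 windows of the same length, the ETS core occurred in 14.5%, the E-box in 6.34%, the cyclic AMP response element in 1.65%, the GC box in 42.6%, the TATA box in 10.7%, the AP-1 site in 6.57% and the serum response element in 1.16%. Among the 12 windows of the 8 members with an entry, 8 held a GC box, 2 an ETS core and 2 an E-box. Promoters of DUSP4 and DUSP5 were not used here. In the deposited tables, on hg19, DUSP6 lies at chr12:89741836-89746296, DUSP2 at chr2:96808907-96811179, SPRY2 at chr13:80910111-80915086, DUSP1 at chr5:172195092-172198203 and DUSP5 at chr10:112257624-112271302, and no other gene of the tables overlaps any of the 10 members. A match is a description of the letters and was not tied to any binding here.

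The values are FPKM, that is, fragments corrected for transcript length and for the size of the library, so levels can be set side by side between genes. Sums of FPKM ran from 522659 to 644841 per library, and 10418 to 10894 genes reached 1 FPKM; read depth is unknown, so no counting interval is given. The blood cell marker PTPRC, the myeloid transcription factor SPI1 and the myeloid surface protein CD33 stood at 55.8, 85.1 and 47.2 FPKM in IMS-M2 and at 39.6, 138.9 and 40.1 FPKM in U937, in the +FA DMSO groups. CYBB, a phagocyte oxidase subunit, was at 0.199 FPKM in IMS-M2 and 20.0 FPKM in U937 in the same groups. These belong to a list of 7 markers with LYZ, MPO and CSF1R, whose single levels are not given here. Of the 7, 6 averaged at least 1 FPKM in IMS-M2 +FA DMSO and 5 in U937 +FA DMSO. In the -FA DMSO groups the counts were 4 in IMS-M2 and 6 in U937. Epithelial and stromal markers summed to at most 0.252 FPKM and lymphoid markers to at most 3.80 FPKM in any library. With OTX, the summed 7 haematopoietic and myeloid markers fell from a range of 197 to 219.7 FPKM to one of 57.25 to 63.7 FPKM in IMS-M2 +FA, from 199.6 to 211 down to 76.9 to 81.3 FPKM in IMS-M2 -FA, from 699 to 913 down to 441 to 517 FPKM in U937 +FA, and from 1587 to 2069.6 down to 652 to 735 FPKM in U937 -FA. The sum hides single markers that went the other way in U937. There 2 of the 7 rose and 5 fell in each condition, by the limma test described below. In IMS-M2 all 6 that were tested fell in both conditions. Over all tested genes 27.5% to 29.8% rose and 27% to 33.4% fell in the 4 comparisons. The 3 erythroid and megakaryocyte markers, in IMS-M2 mostly the platelet integrin ITGA2B, summed to 52.7 to 68.7 FPKM with DMSO and 11.3 to 14.9 FPKM with OTX in IMS-M2 +FA, and to 69.7 to 79.2 and 16.7 to 26.5 FPKM in IMS-M2 -FA, while in U937 no library exceeded 0.579 FPKM. The part of these shifts in the results below was not tested. In RNA from a whole culture, fewer cells of a type and less RNA per cell cannot be told apart.

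Tests used limma on log2(FPKM + 1), with Benjamini-Hochberg adjustment over all genes that reached a mean of 1 FPKM in at least 1 group of the line. A gene was called changed at an adjusted p below 0.05. In IMS-M2 10 of 10 members were tested and in U937 9 of 10, since SPRY1 lay under 1 FPKM in every U937 group. DUSP1 entered the IMS-M2 test only through its +FA DMSO group, DUSP2 there through its DMSO groups, and SPRED1 entered the U937 test only through its OTX groups, so the counts that follow are descriptions.

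OTX changed most of the tested inhibitors, in both directions. In IMS-M2 +FA 4 rose and 3 fell out of 10, where 63.2% of all 11223 tested genes changed (29.8% up, 33.4% down). In IMS-M2 -FA 5 rose and 4 fell out of 10, against 57.5% of all genes (27.5% up, 30% down). In U937 +FA 7 rose and 1 fell out of 9, against 56.1% of 11194 genes (29.1% up, 27% down). In U937 -FA 5 rose and 2 fell, against 59.8% (28% up, 31.7% down). Most tested genes moved with OTX, so the count of changed members is no result about the family as a whole. The median log2 change of the tested members was 0.12, 0.13, 0.36 and 0.29 in the 4 comparisons in that order, beside -0.03, -0.01, 0.02 and -0.02 over all tested genes.

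Which members moved was partly shared between the comparisons. DUSP5, DUSP6, DUSP10 and SPRED1 rose in all 4 comparisons, which 11.4% of the 10220 genes tested in both lines did. For SPRED1 this rests on a U937 +FA call (adjusted p = 0.0433) that was lost in 5 of the 6 limma fits without 1 library. DUSP2 fell in all 4, as did 11.8% of genes. A rise of at least 1 on the log2 scale in all 4 occurred in 0.45% of genes and included DUSP6. A fall of at least 1 in all 4 occurred in 0.949% and included DUSP2. In IMS-M2 DUSP2 entered the test only through its DMSO groups, which favours a fall, so its place there is a description. DUSP1 and DUSP4 each rose in 1 comparison and fell in 1 other.

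**Figure D1:**
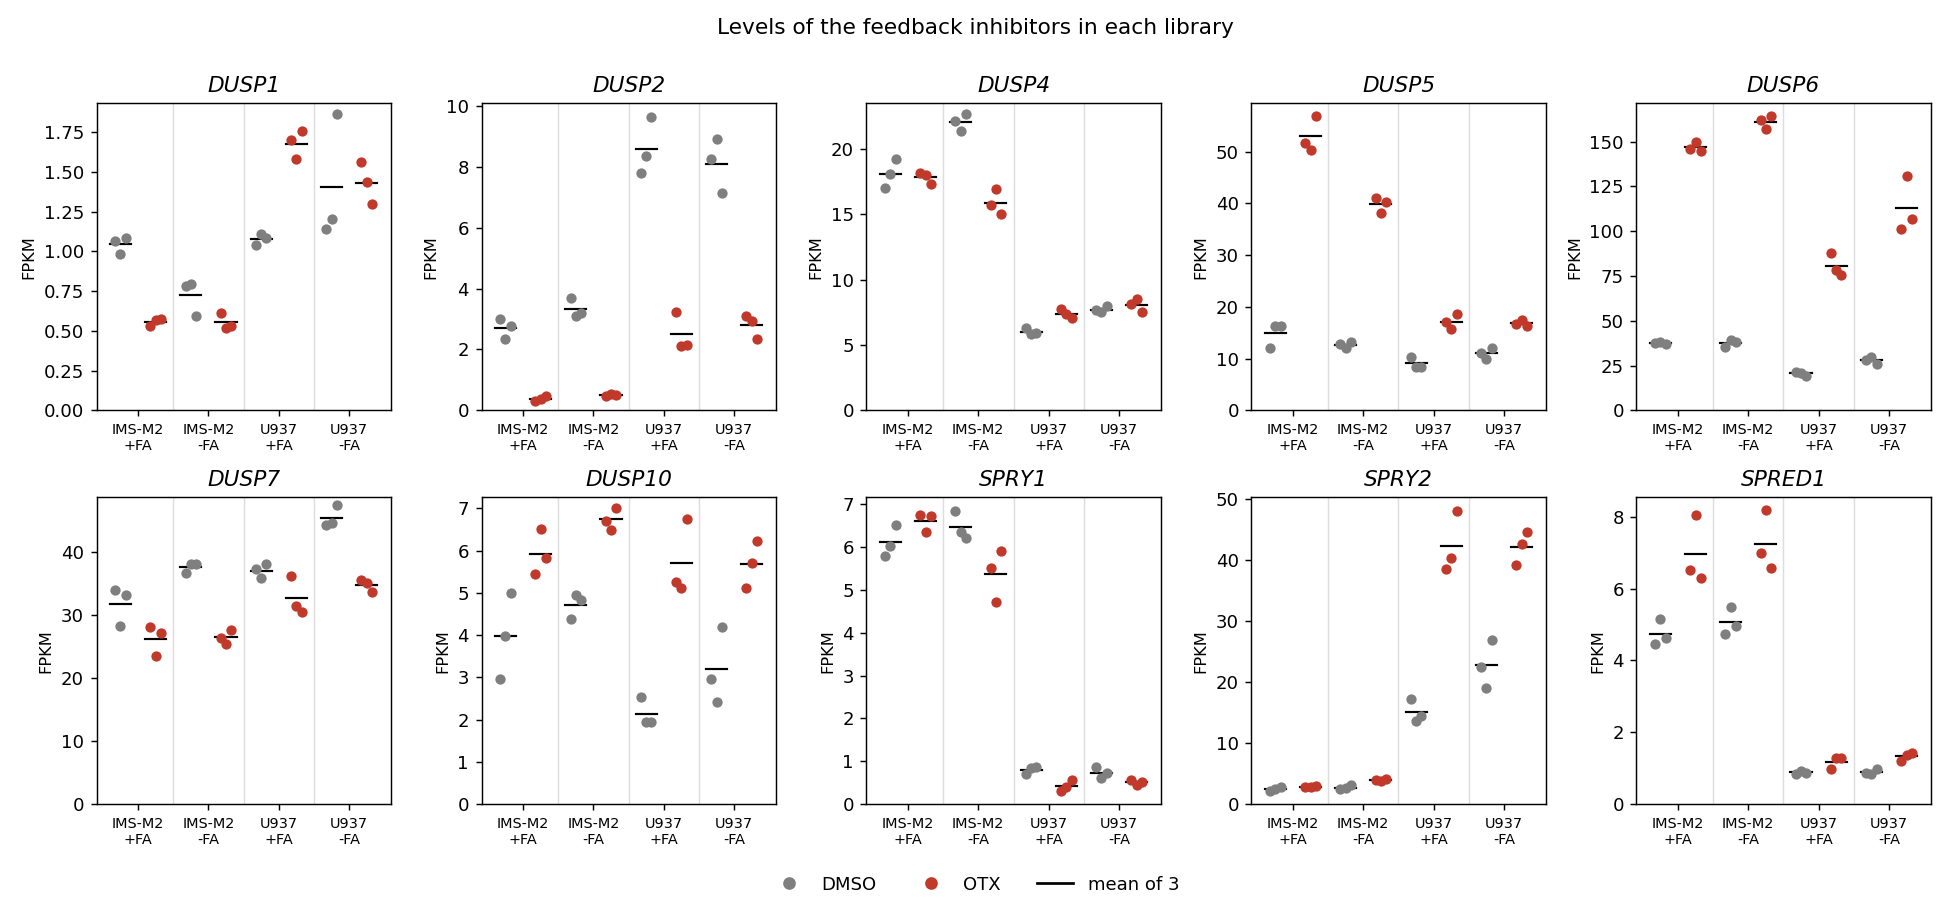
FPKM of each of the 10 members in the 24 libraries, 1 panel per member with its own axis from 0, points for libraries and horizontal lines for the mean of 3. DUSP6 stands highest in the OTX groups of both lines (means 147 and 161 FPKM in IMS-M2, 80.6 and 113 FPKM in U937), and SPRY1 and SPRY2 stand at opposite ends in the 2 lines.

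DUSP6, the cytoplasmic ERK phosphatase, had the largest rise of the 10 members in each of the 4 comparisons. In IMS-M2 +FA it stood at 37.6, 38.2 and 37.2 FPKM in the DMSO libraries and at 146, 150.0 and 145 FPKM in the OTX libraries. In IMS-M2 -FA the DMSO libraries had 35.5, 39.1 and 37.95 FPKM and the OTX libraries 162, 157 and 164 FPKM. In both conditions every OTX library lay far above every DMSO library. In U937 +FA DUSP6 went from 21.4, 21.1 and 19.4 FPKM to 87.8, 78.2 and 75.8 FPKM. In U937 -FA, whose table numbers its columns 0, 1 and 2, it went from 28.3, 29.7 and 25.6 FPKM to 101, 131 and 107 FPKM. Again no OTX library overlapped a DMSO library. The ratio of group means was 3.90, 4.29, 3.90 and 4.06 in the 4 comparisons. The log2 changes were 1.93 (SE 0.0641, limma adjusted p = 1.13e-10) in IMS-M2 +FA and 2.07 (SE 0.0641, adjusted p = 8.5e-11) in IMS-M2 -FA. In U937 they were 1.91 (SE 0.104, adjusted p = 1.19e-07) with folic acid and 1.98 (SE 0.104, adjusted p = 8.33e-08) without it.

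DUSP7, the related cytoplasmic ERK phosphatase, moved the other way and by less. In IMS-M2 +FA it stood at 34.1, 28.4 and 33.2 FPKM with DMSO and 28.1, 23.5 and 27.2 FPKM with OTX, so the groups were separated only narrowly. In IMS-M2 -FA it went from 36.8, 38.2 and 38.2 FPKM to 26.5, 25.5 and 27.7 FPKM, a wider gap. The log2 changes were -0.27 (limma adjusted p = 0.0159) and -0.49 (adjusted p = 0.000377). The first call was lost without the third DMSO library (adjusted p = 0.0515), without the second OTX library (0.0723) and with the 6 libraries of that table alone (0.0634). In U937 -FA it fell by 0.38 (adjusted p = 0.00134), from 44.4, 44.6 and 47.6 FPKM to 35.6, 35.1 and 33.7 FPKM, without overlap. In U937 +FA the groups overlapped, at 37.3, 35.9 and 38.2 FPKM against 36.2, 31.4 and 30.5 FPKM, and the change of -0.18 did not pass (adjusted p = 0.0639). It passed without the first OTX library (-0.25, adjusted p = 0.0136). DUSP6 and DUSP7, alike in their preference for ERK, thus stood at about the same level in IMS-M2 with DMSO (37.7 and 31.9 FPKM) and far apart with OTX (147 and 26.2 FPKM).

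Among the inducible nuclear phosphatases, DUSP5, which is specific for ERK, rose everywhere and most in IMS-M2. Its IMS-M2 +FA libraries had 12.03, 16.3 and 16.3 FPKM with DMSO and 51.6, 50.3 and 56.9 FPKM with OTX. The -FA libraries had 12.8, 12.1 and 13.1 FPKM and 41.1, 38.1 and 40.3 FPKM. The groups did not overlap in either condition, and the ratios of means were 3.56 and 3.14. In U937 it went from 10.3, 8.46 and 8.46 FPKM to 17.0, 15.8 and 18.6 FPKM with folic acid, and from 11.2, 9.88 and 11.99 FPKM to 16.7, 17.4 and 16.3 FPKM without. Here too all OTX libraries lay above all DMSO libraries, with ratios of 1.89 and 1.53. The log2 changes were 1.77 (limma adjusted p = 1.83e-08) and 1.58 (6.79e-08) in IMS-M2, and 0.85 (2.03e-05) and 0.57 (0.000351) in U937.

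DUSP2, a nuclear phosphatase of activated leukocytes, was the member that fell throughout. In IMS-M2 +FA it stood at 3.001, 2.34 and 2.78 FPKM with DMSO and 0.303, 0.374 and 0.459 FPKM with OTX. In IMS-M2 -FA it stood at 3.70, 3.10 and 3.21 FPKM and 0.478, 0.538 and 0.497 FPKM. Every OTX library was under 1 FPKM and every DMSO library above 2, so DUSP2 entered the IMS-M2 test only through DMSO. The DMSO means were 7.15 and 6.62 times the OTX means. In U937 the DMSO libraries were higher, at 7.80, 8.34 and 9.62 FPKM with folic acid and 8.27, 8.91 and 7.13 FPKM without. Their OTX counterparts had 3.23, 2.11 and 2.16 FPKM and 3.10, 2.93 and 2.34 FPKM, without overlap with the DMSO libraries. On the log2(FPKM + 1) scale the changes were -1.42 (limma adjusted p = 2.62e-08) and -1.53 (1.64e-08) in IMS-M2, and -1.46 (4.21e-06) and -1.26 (1.09e-05) in U937. At these low levels the pseudocount compresses the change: with 0.1 FPKM in its place the IMS-M2 falls were -2.56 and -2.51.

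DUSP4, a nuclear phosphatase of ERK and JNK, had small changes that differed between groups. In IMS-M2 +FA the libraries overlapped, at 17.0, 18.1 and 19.2 FPKM with DMSO and 18.2, 18.04 and 17.3 FPKM with OTX (log2 change -0.02, limma adjusted p = 0.82). In IMS-M2 -FA they were apart, at 22.1, 21.4 and 22.7 FPKM against 15.7, 16.9 and 15.01 FPKM, a fall of 0.45 (adjusted p = 0.000133). In U937 +FA it rose by 0.26 (adjusted p = 0.00706), from 6.32, 5.81 and 5.89 FPKM to 7.73, 7.34 and 7.05 FPKM. In U937 -FA the libraries overlapped at 7.65, 7.49 and 7.999 FPKM and 8.16, 8.52 and 7.54 FPKM (0.06, adjusted p = 0.487). The level in IMS-M2 was above that of U937 in every group, at 15.9 FPKM or more against 8.07 FPKM or less.

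DUSP1, an immediate early phosphatase of p38, JNK and ERK, was low, with group means from 0.553 to 1.68 FPKM. In IMS-M2 +FA it went from 1.06, 0.985 and 1.08 FPKM to 0.532, 0.570 and 0.574 FPKM, and fell by 0.39 (limma adjusted p = 0.000445). DUSP1 entered the IMS-M2 test only through that DMSO group, which favours a fall. In U937 +FA it rose by 0.36 (adjusted p = 0.0101), from 1.04, 1.11 and 1.09 FPKM to 1.70, 1.58 and 1.76 FPKM. The libraries of the 2 lines overlapped with DMSO, and with OTX the U937 mean was 3.004 times that of IMS-M2. Without folic acid DUSP1 overlapped between DMSO and OTX in both lines. It had 0.784, 0.798 and 0.592 FPKM against 0.614, 0.515 and 0.531 FPKM in IMS-M2 (-0.15, adjusted p = 0.0935). In U937 it had 1.141, 1.204 and 1.86 FPKM against 1.56, 1.44 and 1.298 FPKM (0.03, adjusted p = 0.829). The IMS-M2 -FA fall passed without the third DMSO library (-0.21, adjusted p = 0.042). With a pseudocount of 0.1 FPKM the +FA changes were -0.80 and 0.59.

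DUSP10, the JNK and p38 phosphatase, rose in all 4 comparisons. In IMS-M2 +FA it went from 2.97, 3.99 and 5.002 FPKM to 5.45, 6.501 and 5.82 FPKM, and in IMS-M2 -FA from 4.39, 4.94 and 4.84 FPKM to 6.71, 6.499 and 7.01 FPKM. In U937 +FA it went from 2.53, 1.95 and 1.95 FPKM to 5.25, 5.12 and 6.74 FPKM, and in U937 -FA from 2.97, 2.43 and 4.19 FPKM to 5.11, 5.71 and 6.22 FPKM. The OTX libraries lay above all DMSO libraries each time, though the spread among DMSO libraries was wide in IMS-M2 +FA and U937 -FA. The log2 changes were 0.49 (limma adjusted p = 0.00361), 0.44 (0.0084), 1.09 (8.38e-05) and 0.69 (0.00199). The 4 OTX group means lay between 5.68 and 6.74 FPKM, closer together than the DMSO means, which ran from 2.14 to 4.72 FPKM.

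**Figure D2:**
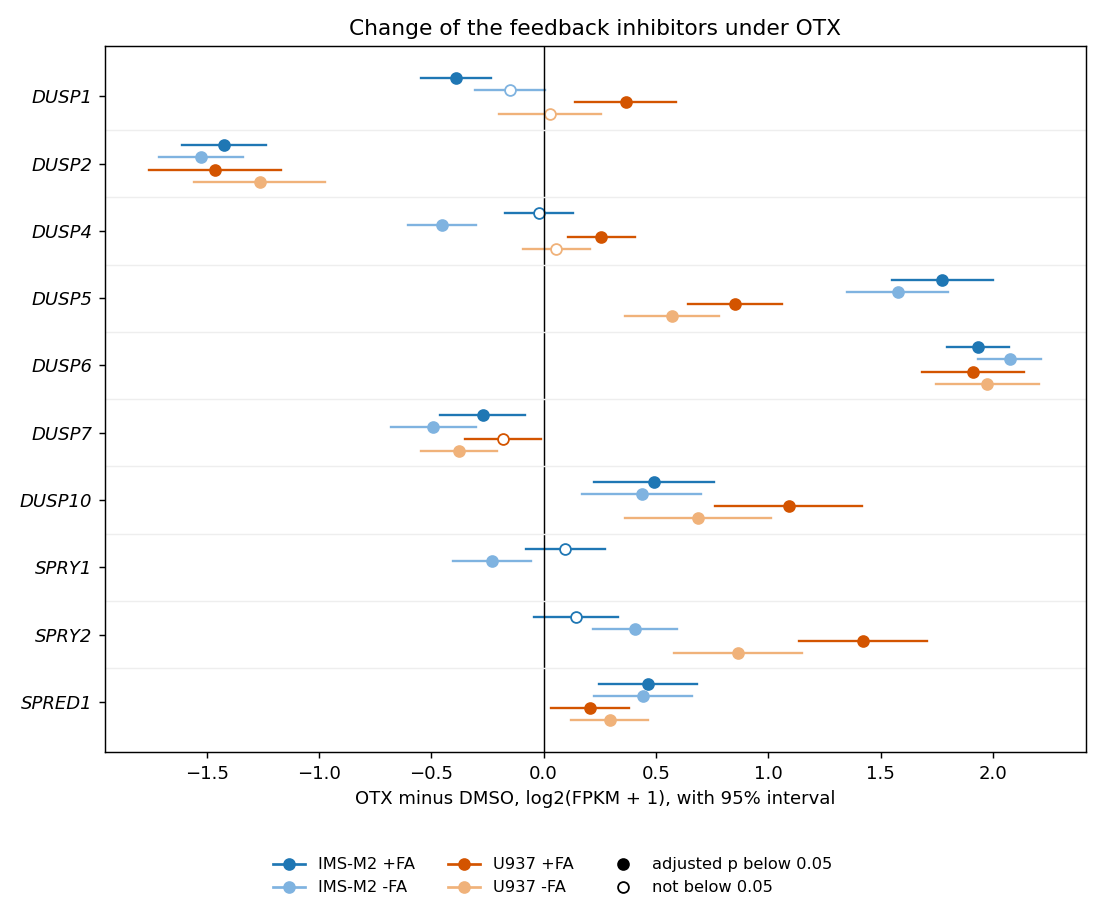
Log2 change with OTX (limma, 95% interval) of each tested member in the 4 comparisons, filled where the adjusted p is below 0.05. DUSP6 lies near 2 in all 4, DUSP2 between -1.26 and -1.53, and SPRY2 runs from 0.14 in IMS-M2 +FA to 1.42 in U937 +FA.

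SPRY2, which holds back RAS activation below growth factor receptors, responded mainly in U937. There it went from 17.3, 13.7 and 14.5 FPKM to 38.5, 40.4 and 48.0 FPKM with folic acid, and from 22.5, 19.1 and 26.97 FPKM to 39.3, 42.6 and 44.5 FPKM without. The groups did not overlap, and the OTX means of the 2 conditions were 42.3 and 42.1 FPKM. The log2 changes were 1.42 (limma adjusted p = 4.44e-06) and 0.87 (0.00016). In IMS-M2 +FA SPRY2 stood at 2.203, 2.54 and 2.86 FPKM with DMSO and 2.81, 2.86 and 3.002 FPKM with OTX, which overlapped (0.14, adjusted p = 0.165). In IMS-M2 -FA it rose by 0.41 (adjusted p = 0.00144), from 2.44, 2.70 and 3.10 FPKM to 3.95, 3.77 and 4.16 FPKM. Its level in IMS-M2 was below that of U937 in every group.

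SPRY1, its close relative, was the reverse: present in IMS-M2 and almost absent in U937. In IMS-M2 +FA it stood at 5.79, 6.02 and 6.51 FPKM with DMSO and 6.74, 6.35 and 6.72 FPKM with OTX, which overlapped (0.10, limma adjusted p = 0.307). In IMS-M2 -FA it fell by 0.23 (adjusted p = 0.0271), from 6.83, 6.33 and 6.19 FPKM to 5.51, 4.71 and 5.91 FPKM. That call was lost without DMSO library 1 (adjusted p = 0.0909), DMSO library 2 (0.0501) or OTX library 2 (0.123). In U937 SPRY1 had 0.706, 0.847 and 0.871 FPKM with DMSO and 0.319, 0.403 and 0.574 FPKM with OTX when folic acid was present. Without it the values were 0.861, 0.622 and 0.731 FPKM and 0.568, 0.446 and 0.510 FPKM. All U937 OTX libraries lay below all DMSO libraries of their condition, at levels under the limit for testing. The share of all genes separated in this way is not given here, so this is a description only.

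SPRED1, which brings the RAS inhibitor neurofibromin to the membrane, rose by a similar small amount in IMS-M2 in both conditions. It went from 4.46, 5.14 and 4.63 FPKM to 6.53, 8.05 and 6.28 FPKM with folic acid, and from 4.73, 5.48 and 4.96 FPKM to 6.98, 8.18 and 6.58 FPKM without. The groups did not overlap, and the log2 changes were 0.46 (limma adjusted p = 0.00144) and 0.44 (0.00228). In U937 it was near 1 FPKM, at 0.851, 0.930 and 0.879 FPKM against 0.974, 1.29 and 1.27 FPKM with folic acid. Without folic acid it had 0.878, 0.833 and 0.988 FPKM against 1.198, 1.37 and 1.42 FPKM. These changes of 0.21 (adjusted p = 0.0433) and 0.29 (0.00718) were 0.37 and 0.52 with a pseudocount of 0.1 FPKM. The +FA call in U937 was lost without any of the 3 DMSO libraries (adjusted p = 0.0963, 0.0668 and 0.0929) and without OTX library 2 (0.142) or 3 (0.136). It was also lost after rescaling the libraries by their median ratios (0.0534) and with the 6 libraries of that table alone (0.0827).

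Added over the 10 members, the inhibitors rose from 124 ± 4.49 to 267 ± 1.79 FPKM in IMS-M2 +FA (mean ± SD, n = 3 in each group) and from 133 ± 2.59 to 268 ± 5.38 FPKM in IMS-M2 -FA. In U937 +FA the sum went from 102 ± 3.73 to 192 ± 7.60 FPKM, and in U937 -FA from 129 ± 5.24 to 227 ± 17.5 FPKM. DUSP6 made up most of this: its share of the sum went from 30.5% to 55.0% and from 28.2% to 60.2% in IMS-M2, and from 20.4% to 42.0% and from 21.6% to 49.7% in U937. No test was made on the sum. With DMSO the sum was divided mainly among DUSP6, DUSP7, DUSP4 and DUSP5 in IMS-M2, and among DUSP7, DUSP6 and SPRY2 in U937.

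**Figure D3:**
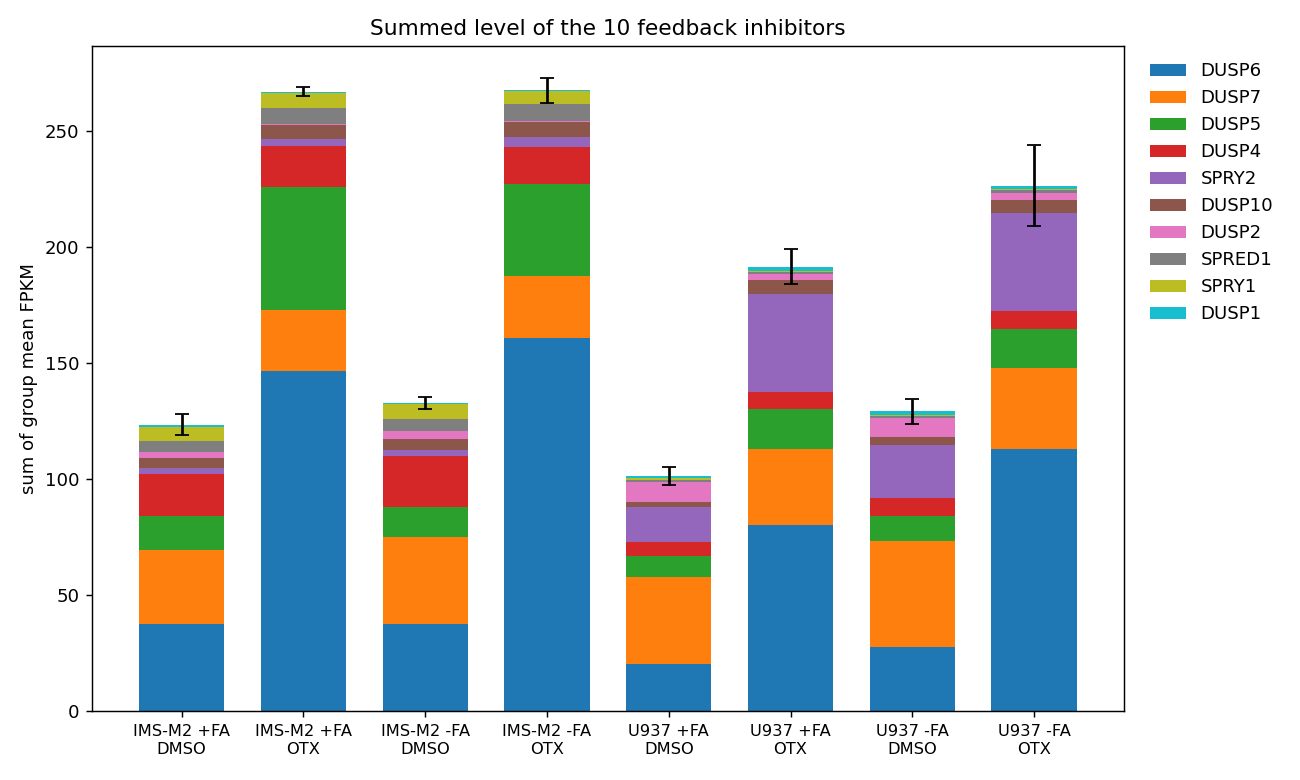
Group mean FPKM of the 10 members, stacked by member, for the 8 groups, with error bars for the SD of the sum over 3 libraries. Each OTX group is higher than its DMSO group, and the DUSP6 part grows most (from 30.5% to 55.0% of the sum in IMS-M2 +FA).

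Whether folic acid changed the response to OTX was tested as the difference between the 2 OTX changes of a line, -FA less +FA, each against its own DMSO group. In IMS-M2 only DUSP4 passed among the 10 members, with a difference of -0.43 (SE 0.0991, 95% interval -0.65 to -0.22, limma adjusted p = 0.0315), where 6.94% of all genes passed. That share depended on single libraries: 779 genes passed with all of them, and between 82 (without -FA OTX 1) and 3429 (without +FA DMSO 1) when 1 was left out. With no filter 445 passed. The DUSP4 call was lost in 9 of the 12 fits that left out a library: +FA DMSO 2 (adjusted p = 0.0626), +FA OTX 1, 2 and 3 (0.0688, 0.0685 and 0.0548), -FA DMSO 1, 2 and 3 (0.0725, 0.0656 and 0.0615), and -FA OTX 1 and 3 (0.0977 and 0.0786). The difference itself stayed between -0.48 and -0.39. The change in DUSP6 differed by 0.14 (interval -0.06 to 0.34, adjusted p = 0.312) and that in DUSP2 by -0.10 (-0.37 to 0.16, adjusted p = 0.596). SPRY2 differed by 0.26 (adjusted p = 0.167), and passed without the first +FA DMSO library (0.33, adjusted p = 0.0468).

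In U937 no member of the 9 tested passed, where 2.01% of all genes passed. The share over all genes, 225 genes, also depended on single libraries: 2184 passed without +FA DMSO 1, 2704 without -FA DMSO column 1, 79 without -FA OTX column 0, and 1 or 2 without any of the other 9 libraries. With a pseudocount of 0.1 FPKM 31 passed, and 128 with no filter. SPRY2 had a difference of -0.56 (interval -0.96 to -0.15, limma adjusted p = 0.0781), the largest among the members. It passed without the first +FA DMSO library (-0.65, adjusted p = 0.0384) and without column 1 of -FA DMSO (-0.67, adjusted p = 0.0261). DUSP6 differed by 0.06 (interval -0.26 to 0.39, adjusted p = 0.775). In DMSO, SPRY2 stood at 22.9 FPKM without and 15.2 FPKM with folic acid in U937, while the OTX libraries of both conditions overlapped. The 2 conditions are in separate tables, which may have been normalized separately, so this difference of levels has no test. DUSP6 was also higher without folic acid in U937, in DMSO (27.9 against 20.7 FPKM) and in OTX (113 against 80.6 FPKM), with no overlap between libraries. In IMS-M2 DMSO the libraries with and without folic acid overlapped (means of 37.7 and 37.5 FPKM). In IMS-M2 OTX DUSP6 was higher without folic acid as well (161 against 147 FPKM), with no overlap between libraries. Such differences were not limited to SPRY2 and DUSP6. In U937 DMSO, DUSP1, DUSP4 and DUSP7 were also higher without folic acid with no overlap, and no member was lower without overlap. In IMS-M2 DMSO, DUSP2, DUSP4 and DUSP7 were higher and DUSP1 was lower, each with no overlap. With OTX, members without overlap lay on both sides in each line. A shift between whole tables was not tested.

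The lines differed in both levels and responses. In DMSO with folic acid SPRY1 was 7.56-fold, SPRED1 5.35-fold, DUSP4 3.01-fold and DUSP6 1.82-fold higher in IMS-M2, while SPRY2 was 5.99-fold and DUSP2 3.17-fold higher in U937. DUSP1 overlapped between the lines. With OTX and folic acid the SPRY2 ratio was 14.6 in favour of U937 and the SPRY1 ratio 15.3 in favour of IMS-M2. Again these come from separate tables and have no test. Over the 8 group means, SPRY1 and SPRY2 had r = -0.978 and DUSP4 and SPRY2 r = -0.902 on the log2(FPKM + 1) scale. The 8 points share 2 lines and 4 tables, so these values mostly restate the difference between lines.

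The difference in the response to OTX between lines was tested as U937 less IMS-M2, in all 24 libraries. With folic acid 6 of 10 members passed, 4 upwards and 2 downwards, where 50.6% of all genes passed (27.7% up, 22.9% down). Without it 3 passed, 2 upwards and 1 downwards, where 43% did (21.5% in each direction). SPRY2 responded more in U937, by 1.28 (SE 0.158, limma adjusted p = 1.54e-06) with folic acid and 0.46 (SE 0.158, adjusted p = 0.0246) without. DUSP5 responded less in U937, by -0.92 (SE 0.142, adjusted p = 2.43e-05) and -1.005 (SE 0.142, adjusted p = 1.07e-05). DUSP4 differed by 0.28 (adjusted p = 0.0125) and 0.51 (adjusted p = 9.12e-05). With folic acid DUSP1 differed by 0.76 (adjusted p = 1.91e-05), DUSP10 by 0.60 (0.0183) and SPRY1 by -0.44 (0.00265), and these 3 did not pass without it.

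For DUSP6 the difference between lines was -0.02 (interval -0.26 to 0.22, limma adjusted p = 0.881) with folic acid and -0.10 (-0.34 to 0.14, adjusted p = 0.516) without, from a DMSO level that was 1.82-fold higher in IMS-M2 with folic acid. The DUSP10 call was lost without the third IMS-M2 +FA DMSO library (adjusted p = 0.0658) or the third U937 +FA OTX library (0.059). The SPRY2 call without folic acid was lost without IMS-M2 -FA DMSO 3 (0.0683) or OTX 2 (0.0502), and without U937 -FA DMSO column 1 (0.0704) or OTX column 2 (0.0569), and with a pseudocount of 0.1 FPKM (0.0961). DUSP1 without folic acid (0.18, adjusted p = 0.217) passed without U937 -FA DMSO column 2 (0.31, adjusted p = 0.00552), and SPRED1 with folic acid (-0.26, adjusted p = 0.0867) without IMS-M2 +FA OTX 3 (-0.32, adjusted p = 0.046). For DUSP2 the scale set the outcome: the difference was -0.04 (adjusted p = 0.85) and 0.26 (0.192) with a pseudocount of 1 FPKM, and 0.80 (0.00574) and 0.997 (0.00125) with 0.1 FPKM. The DUSP1 and SPRY1 differences with folic acid were 1.39 and -0.91 with that smaller pseudocount.

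**Figure D4:**
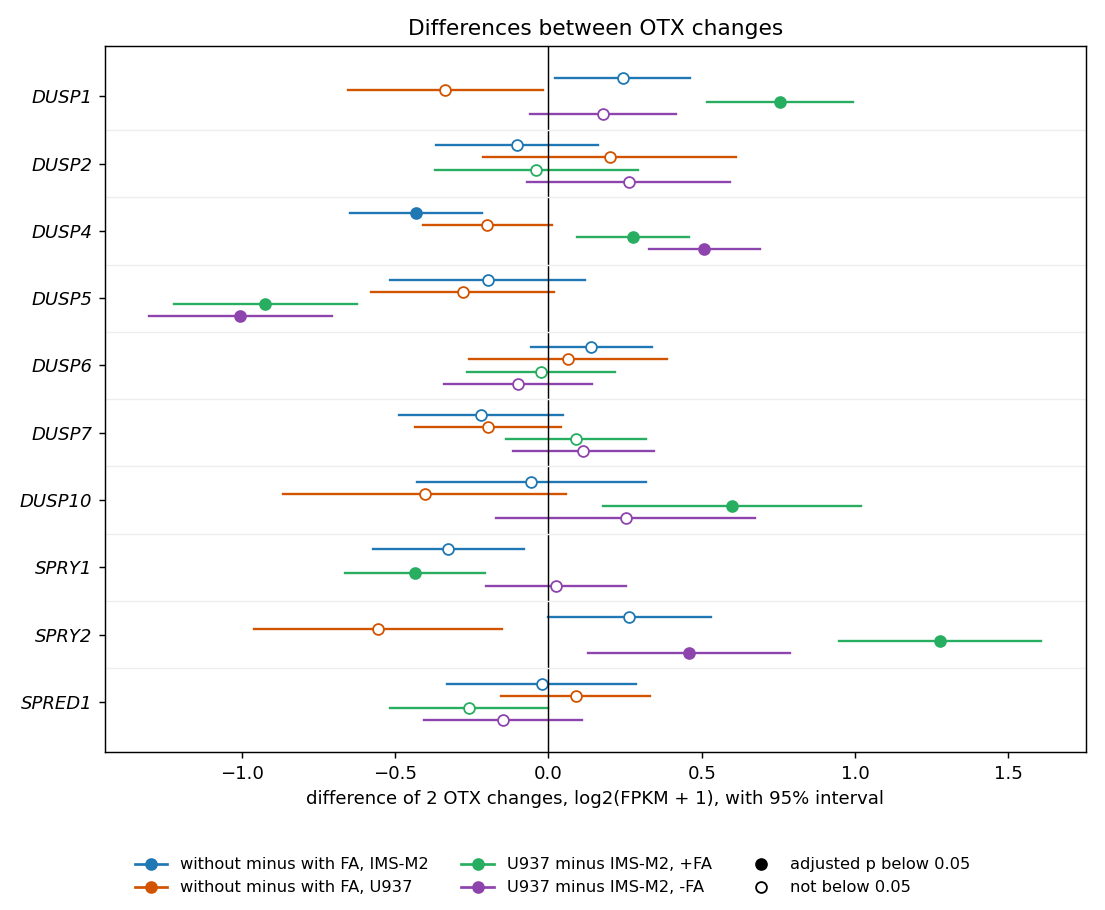
Differences between log2 changes (limma, 95% interval) for each member: -FA less +FA within a line, and U937 less IMS-M2 within a condition. SPRY2 lies at 1.28 and DUSP5 at -0.92 for the lines with folic acid, while DUSP4 at -0.43 in IMS-M2 passed the test of folic acid.

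The other genes of the pathway were read from lists chosen with earlier results of these data known. Their counts are read beside those over all tested genes, of which 27.5% to 29.8% rose and 27% to 33.4% fell in the 4 comparisons, with medians of -0.03, -0.01, 0.02 and -0.02. Of the other dual-specificity phosphatases, 2 rose and 2 fell out of 10 tested in IMS-M2 +FA, 3 and 1 out of 10 in IMS-M2 -FA, 2 and 3 out of 11 in U937 +FA and 4 and 5 out of 11 in U937 -FA, with median log2 changes of -0.08, -0.05, -0.17 and -0.21. From 4 to 9 members of the list passed, against 56.1% to 63.2% of all genes. By rule at most 2 genes per direction were picked per list and comparison. A gene named here for some comparisons may therefore also have changed in others, in either direction. DUSP23, an atypical small phosphatase, fell in all 4 comparisons, with log2 changes of -1.29, -1.0104, -0.68 and -0.84. DUSP3, another small phosphatase that acts on ERK and JNK, fell in IMS-M2 +FA (-0.48) and in U937 (-1.11 and -1.44). STYX, a catalytically inactive relative, rose by 0.62 and 0.56 in IMS-M2 and by 0.64 in U937 -FA, and DUSP14 rose by 0.52 and 0.59 in IMS-M2. STYXL1 rose by 0.68 in U937 +FA. DUSP11, an RNA phosphatase, rose by 0.43 in U937 -FA (limma adjusted p = 0.0198), which was lost without DMSO column 0 (0.0516), DMSO column 2 (0.0693) or OTX column 1 (0.0618).

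Among the other brakes on RAS and receptor signalling, 5 rose and 7 fell of 14 tested in IMS-M2 +FA, 5 and 3 in IMS-M2 -FA, 7 and 3 in U937 +FA, and 9 and 3 in U937 -FA, where 27.5% to 29.8% of all genes rose and 27% to 33.4% fell. The list's median was -0.18, -0.07, 0.29 and 0.34. RASA1, a GTPase-activating protein that switches RAS off, rose in all 4 comparisons, by 0.51, 0.68, 0.68 and 0.68. SPRED2, the paralogue of SPRED1, rose by 0.55 and 0.51 in IMS-M2. LZTR1, which targets RAS proteins for degradation, fell in the 4 comparisons (-0.49, -0.35, -0.40 and -0.54), and PEBP1, the RAF kinase inhibitor protein, fell in U937 (-0.53 and -0.80). RASA3 rose by 0.48 in U937 +FA and RASA2 by 0.61 in U937 -FA. The RASA3 mean also went from 34.6 to 47.4 FPKM in U937 -FA, and the RASA2 mean from 3.31 to 4.36 FPKM in U937 +FA. Neither of these overlapped between DMSO and OTX libraries, which was common in the list. Of its 14 tested genes, 8 lay above and 3 below without overlap in U937 +FA, and 9 and 4 in U937 -FA.

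In the cascade from RAS to ERK itself, 15 rose and 3 fell of 27 tested in IMS-M2 +FA, 14 and 3 in IMS-M2 -FA, 15 and 4 in U937 +FA and 14 and 5 in U937 -FA. Over all genes 27.5% to 29.8% rose and 27% to 33.4% fell. The list's median log2 change was 0.28, 0.24, 0.25 and 0.28, beside -0.03, -0.01, 0.02 and -0.02 over all genes. MAPK3, which encodes ERK1, a substrate of DUSP6, fell in all 4: its mean went from 21.1 to 6.54 FPKM and from 20.7 to 8.70 FPKM in IMS-M2, and from 18.9 to 11.4 FPKM and from 19.4 to 8.84 FPKM in U937. The log2 changes were -1.55, -1.17, -0.68 and -1.05. MAP2K1, which encodes MEK1, rose by 1.38 in IMS-M2 +FA and 1.29 in U937 -FA. Its mean also went from 21.1 to 41.3 FPKM in IMS-M2 -FA and from 19.4 to 29.6 FPKM in U937 +FA, with no overlap. The RAS relative RRAS2 rose by 1.95 and 1.66 in IMS-M2. In U937 RRAS rose by 1.12 and 1.42 while MRAS fell (-1.39 and -1.96). MKNK2, a kinase downstream of ERK, rose by 1.06 in IMS-M2 -FA and 0.95 in U937 +FA. Its mean also went from 30.6 to 61.0 FPKM in IMS-M2 +FA and from 65.4 to 123 FPKM in U937 -FA, with no overlap. Such separation was common among the 27 tested genes. Without overlap, 16 lay above and 3 below in IMS-M2 +FA, and 17 and 3 in IMS-M2 -FA. In U937 the counts were 17 and 4 with folic acid and 14 and 5 without. The adaptor SHC1 fell by 0.25 in IMS-M2 -FA. HRAS fell by 0.37 in IMS-M2 +FA (limma adjusted p = 0.0266), a call lost without +FA DMSO 2 (0.0705), DMSO 3 (0.108) or OTX 2 (0.0992).

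The stress kinase cascades, on which DUSP10 and DUSP1 act, had 9 rising and 6 falling of 19 tested in IMS-M2 +FA, 8 and 6 in IMS-M2 -FA, 6 and 3 of 18 in U937 +FA and 4 and 4 in U937 -FA, beside 27.5% to 29.8% rising and 27% to 33.4% falling over all genes. The median was 0.20, 0.19, 0.18 and 0.12. MAPK8, which encodes JNK1, rose by 0.91 and 1.014 in IMS-M2 and by 0.72 and 0.59 in U937. MAP3K5, the stress kinase ASK1, rose by 1.02 and 0.93 in IMS-M2 and by 0.86 in U937 -FA. MAPK12, a p38 isoform, fell in IMS-M2 (-1.29 and -1.12) and U937 +FA (-0.35), and RPS6KA4, a nuclear kinase activated by p38 and ERK, fell in the same comparisons (-1.03, -1.36 and -0.55). MAPK7, which encodes ERK5, rose by 0.79 in U937 +FA, and MAPKAPK3 and TAB1 fell in U937 -FA (-0.67 and -0.54).

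Other transcripts known to be raised by ERK activity, a list that shares SPRED2 and SPRY4 with the brakes, split in IMS-M2, where 7 rose and 8 fell of 15 tested in each condition. In U937 8 rose and 3 fell of 13 with folic acid and 9 and 3 without. Over all genes 27.5% to 29.8% rose and 27% to 33.4% fell in the 4 comparisons. Their median log2 change was -0.29 and -0.62 in IMS-M2 and 0.60 and 0.75 in U937, beside all-gene medians of -0.03, -0.01, 0.02 and -0.02. IER3, an early response gene, rose in all 4 comparisons, by 3.57 and 3.36 in IMS-M2 and by 1.94 and 2.58 in U937. Its U937 DMSO means were 0.402 and 0.664 FPKM, where the added 1 FPKM compresses the change, and the ratios of OTX to DMSO means there were 11.0 and 13.5. IER2 rose by 2.13 and 1.69 in IMS-M2. ETV5, an ETS factor often read together with DUSP6, rose in all 4, with means of 20.2 and 27.1 FPKM in DMSO and OTX for IMS-M2 +FA, 22.3 and 30.9 FPKM for IMS-M2 -FA, 18.2 and 49.0 FPKM for U937 +FA, and 17.7 and 43.6 FPKM for U937 -FA. FOSL1, an AP-1 subunit, fell in all 4 (-2.23, -1.89, -0.86 and -1.11). KCNN4, a potassium channel, fell by 2.85 in both IMS-M2 conditions, values that became -5.09 and -5.24 with a pseudocount of 0.1 FPKM. MYC fell in U937 (-2.98 and -3.08) and in IMS-M2 (-0.47 and -0.62). FOS, another AP-1 subunit, went opposite ways in the lines: it fell in IMS-M2 (-1.38 and -1.16), where the DMSO means were 3.88 and 2.89 FPKM and the OTX means 0.867 and 0.736 FPKM, and rose in U937 (0.84 and 1.11), where the DMSO means were 3.43 and 8.02 FPKM and the OTX means 6.88 and 18.4 FPKM.

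**Figure D5:**
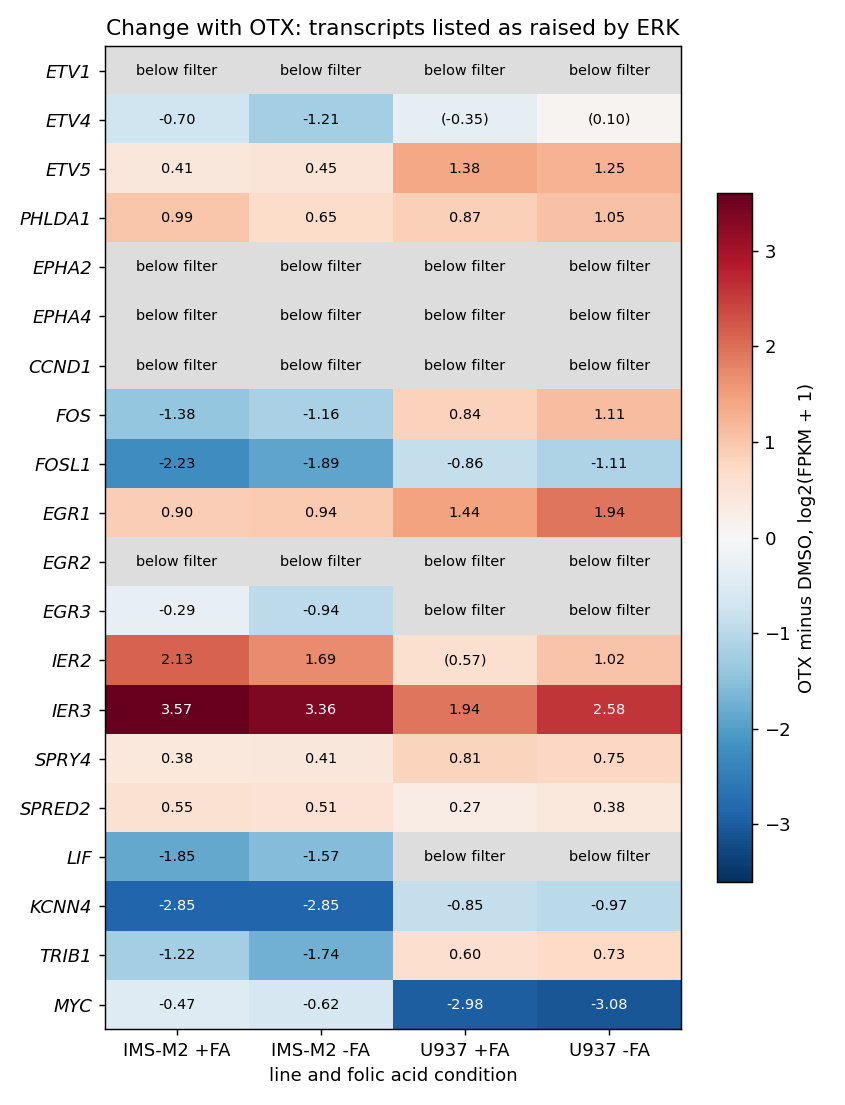
Log2 change with OTX (colour and printed value, on the log2(FPKM + 1) scale) of the 20 listed transcripts known to be raised by ERK activity in the 4 comparisons; values in brackets did not pass the test and grey cells were below the limit for testing. IER3 rises in all 4 (3.57, 3.36, 1.94 and 2.58) and FOSL1 falls in all 4 (-2.23, -1.89, -0.86 and -1.11). In IMS-M2 7 of 15 tested rise and 8 fall in each condition. In U937 8 of 13 rise and 3 fall with folic acid, and 9 and 3 without.

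For the 8 members with a level of at least 5 FPKM and a range of at least 1 on the log2 scale over the 8 group means, the genes with the most similar pattern were sought among 9485 genes by Pearson correlation of log2(FPKM + 1) group means. The nearest to DUSP6 were NDST2, a heparan sulfate enzyme (r = 0.997), and the cytokine receptor kinase JAK1 (0.995). JAK1 ran from 24.5 to 68.6 FPKM over the groups. DUSP5 was nearest to SGSM3 (0.991) and TTC3 (0.988), DUSP10 to PLEKHO2 (0.988) and UBE2B (0.987), and DUSP2 to USE1 (0.996) and FTSJ1 (0.994). The members that differ most between lines were nearest to genes with the same divide: SPRY2 to EDEM1 (0.997) and TP53INP2 (0.997), SPRY1 to FAM117B (0.999) and MSI2 (0.998), SPRED1 to ELOVL7 (0.999) and ARHGAP5 (0.998), and DUSP4 to VOPP1 (0.993) and LTB (0.990). These are the best of many candidates over 8 points that share lines, tables and libraries, and carry no p.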

How the data were processed

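Expression was measured by sequencing polyadenylated RNA in 24 libraries, 3 for each line, folic acid condition and treatment. The authors deposited 4 tables of FPKM values, 1 per line and folic acid condition; the unit is not written in the headers and was taken from the values and the layout. Per the labels' protocols the libraries were made with a TruSeq Stranded mRNA kit. Per the submitters' processing notes the tools were TopHat2 2.1.1, Cuffdiff 2.2.1 and bcl2fastq 2.17.1.14 and the build was hg19, with no role or order given. Whether the 4 tables shared 1 normalization is not given in the sources used here, so levels are set side by side across tables without a test. FPKM is relative to the other transcripts of a library, read counts were not analysed here, and depth is unknown.

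Columns were matched to samples by name. The U937 -FA columns carry the numbers 0, 1 and 2 where the labels have 1, 2 and 3, so those 6 libraries were assigned to groups only.

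From these values limma 3.58.1 in R 4.3.3 was fitted to log2(FPKM + 1) as group means with eBayes and an intensity trend, over the 12 libraries of a line or, for differences between lines, all 24. Adding 1 FPKM makes the change of low genes look smaller. Genes were tested where some group averaged 1 FPKM or more, with Benjamini-Hochberg adjustment over all of them and a threshold of 0.05; intervals are 95%. The procedure was also run on simulated data with independent libraries and few changed genes, unlike these data, and the outcome is not reported here. Differences between OTX changes use the same libraries as the changes themselves.

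The members, the gene lists and the tests were chosen with earlier results of these data known. All 10 members were named in every comparison. From each list, up to 2 genes per direction with the largest changes among called genes averaging 5 FPKM or more in some group could be named (1 gene that this rule names is not reported here), and ETV5 and MYC in IMS-M2, IER3 in U937 +FA and FOS outside U937 +FA were added after their values were seen. For members that reached 5 FPKM and spanned 1 on the log2 scale, the 2 genes with the most similar group means were named. Alternatives were a pseudocount of 0.1 FPKM, no filter, a filter at 5 FPKM, rescaled libraries, no intensity trend, only the libraries of a table, each library left out, and the replicate number as a block. Figures were drawn with matplotlib 3.10.9.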

Additional observations from a re-analysis of the deposited data

Results flagged for a closer look

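The response to OTX differed with folic acid for 1 member in IMS-M2: the change in DUSP4, a phosphatase of ERK and JNK, was lower without folic acid by a log2 difference of -0.43. The call was lost in 9 of the 12 limma fits that left out a library, with an adjusted p of up to 0.0977.

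Between the lines, tested as U937 less IMS-M2 in medium with folic acid, SPRY2 differed by 1.28, DUSP1 by 0.76, DUSP10 by 0.60 and DUSP4 by 0.28, while DUSP5 differed by -0.92 and SPRY1 by -0.44. SPRY1 lay under 1 FPKM in U937, so it entered this test only through IMS-M2. DUSP1 lay near 1 FPKM in both lines. Without folic acid DUSP4 differed by 0.51, SPRY2 by 0.46 and DUSP5 by -1.005. In each case the difference itself passed the limma test at an adjusted p below 0.05. DUSP4, DUSP5 and SPRY2 passed in both folic acid conditions. The SPRY2 difference without folic acid was lost in 4 of the 12 fits that left out a library (adjusted p up to 0.0704) and with a pseudocount of 0.1 FPKM (0.0961). The DUSP10 difference was lost in 2 of 12 (0.0658 and 0.059).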

How the results depend on the processing

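Of 77 results for single members, 54 kept their direction and their side of the threshold in every alternative run. The calls of DUSP2, DUSP5, DUSP6 and DUSP10 with OTX were among them in each comparison, though a filter at 5 FPKM left DUSP2 in IMS-M2 untested. Leaving out single libraries moved the number of members called for the folic acid difference from 0 to 2 in IMS-M2 (1 with all libraries) and from 0 to 1 in U937 (0 with all libraries; the call was SPRY2). Depth is unknown, so the limit it sets on the low genes DUSP1, SPRY1 and SPRED1 could not be given; for them and for DUSP2 in IMS-M2 the pseudocount sets the size of a change. Rescaling the libraries moved the median change of all genes by less than 0.1 in every contrast.

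Directions turned as follows, none for a called change; the cause was not tested. With a pseudocount of 0.1 FPKM, DUSP2 turned to 0.052 for the effect of folic acid on its change in IMS-M2 and to 0.80 for the line difference with folic acid, and without folic acid the line differences of SPRY1 and SPRED1 turned to -0.19 and 0.0092. Leaving out a library in turn gave ranges that crossed 0 for DUSP4 in IMS-M2 +FA (-0.062 to 0.022), for DUSP1 in U937 -FA (-0.049 to 0.16), for the folic acid difference of DUSP10 (-0.20 to 0.099) and SPRED1 (-0.10 to 0.074) in IMS-M2 and of DUSP6 in U937 (-0.043 to 0.14), and for the line differences of DUSP2 (-0.18 to 0.038) and DUSP6 (-0.085 to 0.019) with folic acid and of SPRY1 without it (-0.051 to 0.086). DUSP7 in U937 +FA passed with no filter (adjusted p = 0.049) and after rescaling (0.0418), and DUSP1 in IMS-M2 -FA passed with no filter (0.0288).

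The main fits did not pair the libraries by replicate number, and whether the numbers mark pairs is not known. Deviations of same-numbered DMSO and OTX libraries correlated at 0.0534, 0.276 and 0.0743 in IMS-M2 +FA, at 0.0743, 0.213 and 0.189 in IMS-M2 -FA and at -0.335, 0.128 and -0.237 in U937 +FA. In IMS-M2 all 6 of these were positive and 9 of the 12 between unlike numbers were negative, and each library of IMS-M2 -FA correlated best with its own number, which in IMS-M2 +FA did not hold for OTX 1. With the number as a block the members called were 7, 9 and 1 for the IMS-M2 changes and their difference, 8 for U937 +FA and 7 for the line difference with folic acid, where SPRED1 was added (adjusted p = 0.0279). Over all genes the block moved the calls for folic acid in IMS-M2 from 779 to 1920. No block was fitted for U937 -FA, whose columns are numbered from 0 and do not carry the labels' numbers.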
